A study of Mus musculus with 15 samples.

Results

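The comparison is of the chromosome contacts of the Ifng locus in a B lymphocyte cell line and in 3T3-L1 cells, a mouse preadipocyte line. It uses 5 of the 15 samples of the series, those amplified from the Ifng bait: 1 B cell sample with 1 library, and 4 samples of 3T3-L1 cells with 2 libraries each. The series as a whole holds 27 libraries from 3 baits (Ifng, Pparg and Lpin1), each giving read counts at the same 823355 HindIII sites of the mouse genome (mm9). After fixation with 2% formaldehyde (10 min), chromatin was digested with HindIII and ligated, DpnII then trimmed the products for circularisation, and fragments joined to the bait were amplified and sequenced (4C-seq). The B cell sample is labelled only as a B lymphocyte cell line, and its culture is not given in the sources used here. The 3T3-L1 cells were collected on days 0, 1, 2 and 6 of conversion to adipocytes, which began after confluence with serum, 1 µM dexamethasone, 0.5 mM 3-isobutyl-1-methylxanthine and 1 µg/ml insulin. All 9 libraries carry the same bait and no genetic change is stated, so cell type, culture and any other difference between the lines cannot be told apart here.

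A 4C-seq library counts how often each restriction site was ligated to 1 chosen site, the bait. Counts fall steeply with distance along the chromosome, and farther out they come mostly from stretches that share the bait's chromosome territory and its active or inactive compartment. Ifng encodes interferon gamma, a cytokine made mainly by T cells and natural killer cells and not a defining product of B cells or adipocytes. The bait therefore reads the surroundings of a gene that neither line is known for. In the gene order of the GRCm38.p6 annotation, Iltifb and the lymphocyte cytokine gene Il22 lie next to Ifng on the low-coordinate side, then Mdm1, Rap1b, Nup107 and, farther on, Mdm2, the inhibitor of p53. On the high-coordinate side follow Dyrk2, which encodes a kinase, Cand1, a regulator of cullin ubiquitin ligases, and Grip1, a synaptic scaffold gene.

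The bait site lay at chr10:117870359-117870364 and was the site with the most reads in every library. It held 71.6% of the reads in the B cell library, against 58.6% to 93.2% in the 3T3-L1 libraries. Once the zone of 10 kb on each side of it was set aside, 203827 reads stood for the B cells, against 110369 to 802403 (median 343704) for 3T3-L1. The B cell library was therefore neither the shallowest nor the deepest. It had 10007 captured sites (at least 1 read) on chromosome 10, against 6378 to 14362 in 3T3-L1, and 16065 on the other chromosomes, fewer than the 16630 to 57860 of the 3T3-L1 libraries. The 3T3-L1 files numbered 1 and 2 differed from each other on several measures below, and the labels do not say what the number stands for. Results described as outside the 3T3-L1 range hold against the files of each number.

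The B cell bait kept more of its contacts on its own chromosome. Outside 1 distant stretch of that chromosome it also spread them farther. Chromosome 10 held 79.4% of the B cell reads (95% Wilson interval 79.2 to 79.6), against 66.0% to 71.4% in 3T3-L1 (mean 69.0 ± 1.92, SD, n = 8). One stretch of 1.5 Mb, starting at 106500001 bp of chromosome 10 and about 10 Mb from the bait, took 3.81% of the chromosome 10 reads in B cells, against 20.8% to 30.7% in 3T3-L1. It was left out of the shares by distance that follow. Without it, reads from 10 kb to 2 Mb from the bait made up 68.9% of chromosome 10 in B cells, against 74.8% to 86.8% in 3T3-L1 (mean 81.2 ± 4.67, SD, n = 8). This order depends on leaving out the stretch. With its reads kept in the total, the share within 2 Mb was higher in B cells than in all 8 3T3-L1 libraries. The other shares here leave it out. Reads 20 to 50 Mb away, all on the low-coordinate side because the chromosome ends sooner on the other, made up 9.36% in B cells, against 2.86% to 5.44% in 3T3-L1 (mean 4.14 ± 1.06, SD, n = 8). Beyond 50 Mb the B cell share was 4.04%, and the 3T3-L1 libraries, at 2.52% to 4.67%, lay on either side of it. With the stretch left out, the gain thus lay in the middle range and not at the far end of the chromosome. With its reads kept in the total, the B cell share beyond 50 Mb was also above all 8 3T3-L1 libraries. For the share on chromosome 10, within 2 Mb and at 20 to 50 Mb, the two-sided exact permutation test gave p = 0.111, the smallest p that 1 library against 8 allows, so no share can pass 0.05.

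Around the bait itself the contacts leaned to the opposite side in the B cells. The high-coordinate side, which starts with Dyrk2, held 59.1% of all reads within 2 Mb in B cells (Wilson interval 58.8 to 59.4), against 41.9% to 48.8% in 3T3-L1 (mean 45.2 ± 2.54, SD, n = 8). On the low-coordinate side, reads at 0.5 to 1 Mb made up 5.86% of chromosome 10 in B cells, against 10.0% to 15.1% in 3T3-L1. Reads at 1 to 2 Mb on that side made up 3.81% in B cells, against 6.84% to 9.41% in 3T3-L1. All 8 3T3-L1 libraries thus had a larger share of their reads than the B cells in both of these bands. On the high-coordinate side the order was turned in some bands: at 0.5 to 1 Mb the share was 8.0% in B cells, against 2.40% to 5.54% in 3T3-L1. At 1 to 2 Mb on that side the lines overlapped, with 3.29% in B cells and 2.15% to 5.53% in 3T3-L1, and the B cells lay below the files numbered 1 (3.90% to 5.53%). At 2 to 5 Mb it was 4.25% in B cells, against 1.31% to 2.76% in 3T3-L1. The band nearest the bait on the high side, from 10 to 100 kb, did not separate the lines, with 14.1% in B cells and 13.8% to 18.4% in 3T3-L1. This too depends on leaving out the distant stretch. With its reads kept in the total, the B cell share of this band was above all 8 3T3-L1 libraries. The lean showed in reads and not in the number of sites captured. Of captured sites within 2 Mb, 52.8% lay on the high side in B cells, against 51.8% to 53.8% in 3T3-L1. Most sites this near were captured in every library (87.1% of those at 0.5 to 1 Mb on the high side in B cells, against 76.6% to 89.5% in 3T3-L1), so capture can hardly show a difference there.

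**Figure D1:**
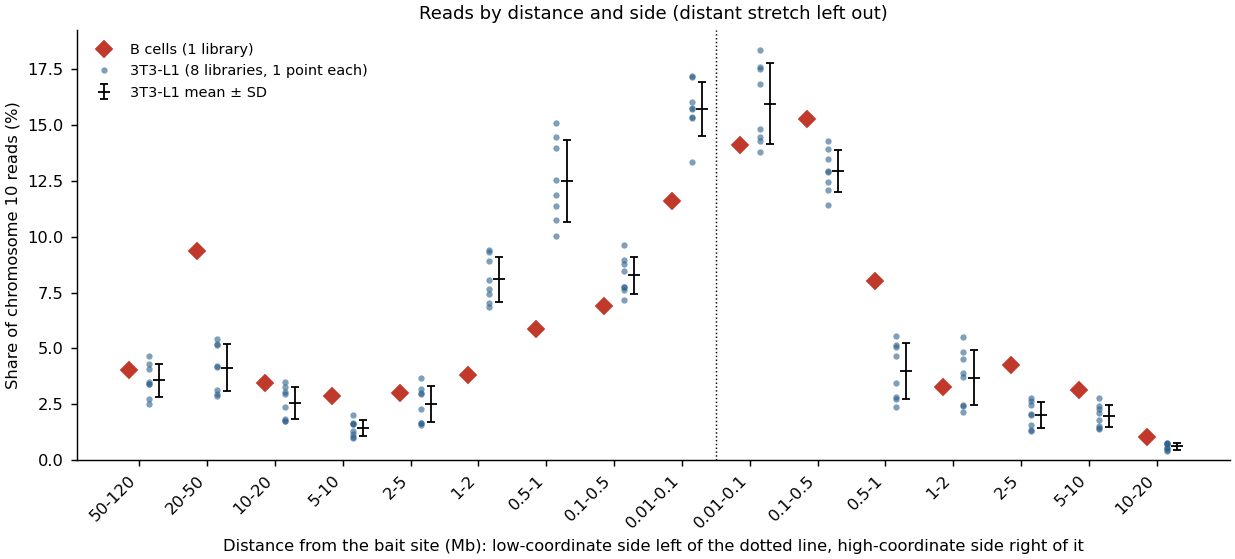
Share of chromosome 10 reads (percent) by distance from the Ifng bait, low-coordinate side left of the dotted line and high-coordinate side right of it, with the distant stretch of 1.5 Mb left out; red diamonds are the B cell library, blue points the 8 3T3-L1 libraries, black bars their mean and SD. The B cell library is lower than all 8 at 0.5 to 2 Mb on the low side, with 5.86% and 3.81% in the 2 bands, and higher than all 8 at 0.5 to 1 Mb on the high side, with 8.0%.

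The same lean showed in windows of 100 kb. Of the 10 windows centred within 1 Mb on the low side, the B cell share of reads was below all 8 3T3-L1 libraries in 8 and above all 8 in 0. The window at chr10:117000001-117100000 had 0.654% of the reads in B cells, against 1.69% to 3.37% (median 2.41%) in 3T3-L1, and the edgeR test of normalised counts gave a log2 difference of -2.58 ± 0.81 (SE; adjusted p = 0.0114). The window beside it, from 116900001 bp, had 0.749% in B cells, against 1.93% to 3.34% in 3T3-L1 (log2 difference -2.43, edgeR adjusted p = 0.0177). Of the 10 windows on the high side, the B cell share was above all 8 in 5 and below all 8 in 1. These counts only describe the lean. The share of all chromosome 10 windows with the B cell library beyond all 8 is not given here. The window at chr10:118400001-118500000 passed the test, with 2.88% in B cells, against 0.561% to 1.28% (median 0.923%) in 3T3-L1 (log2 difference 1.24 ± 0.48, SE; edgeR adjusted p = 0.0459). That call lies close to the threshold and was lost in 13 of 20 alternatives, among them leaving out day 0 replicate 1, day 0 replicate 2, day 1 replicate 2, day 2 replicate 1, day 2 replicate 2, day 6 replicate 1 or day 6 replicate 2 (adjusted p of 0.0547 to 0.154). With captured sites its log2 difference was -0.03. The calls of the 2 windows on the low side were lost with captured sites, at -0.07 and -0.19, and kept under the other alternatives. These 3 of 20 windows passed within 1 Mb of the bait, against 22.9% of windows for the whole chromosome.

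Single sites close to the bait also differed. Among sites within 250 kb, the 6 with the most reads in B cells and the 6 with the most in 3T3-L1 made 8 sites in all. The leading site was the same in both lines, 12.3 kb from the bait on the low side, with 2.75% of the reads in B cells and 3.60% to 4.64% in 3T3-L1. The fifth site of the B cells, at chr10:117963345-117963350 and 93.0 kb from the bait on the high side, had 1.39% in B cells, against 0.0246% to 0.163% in 3T3-L1, where it ranked 59. The site ranked 3 in 3T3-L1, at chr10:117895573-117895578, had 0.633% in B cells, against 1.83% to 2.87% in 3T3-L1. Reads at a single site can be PCR copies of few ligation products, and whether either site is cut or mapped alike in the 2 lines was not tested.

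**Figure D2:**
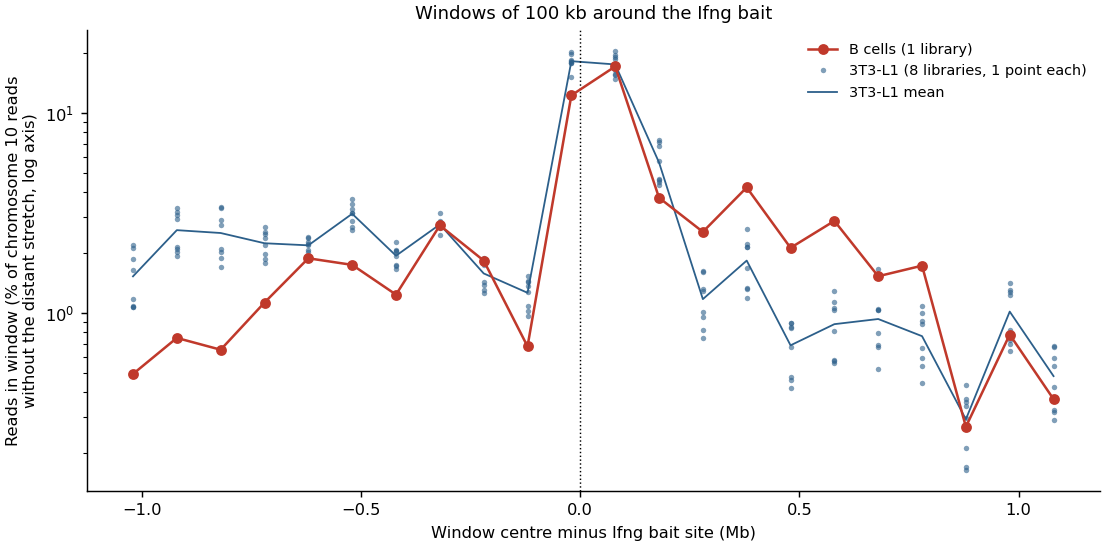
Reads per 100 kb window around the Ifng bait, as a percent of chromosome 10 reads without the distant stretch (log axis), against the distance of the window centre from the bait in Mb; the red line is the B cell library, blue points are the 8 3T3-L1 libraries and the blue line their mean. The B cell line runs below every 3T3-L1 point in 8 of 10 windows on the low side and above every one in 5 of 10 on the high side.

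Along the whole of chromosome 10, 263 of 1148 windows of 100 kb differed between the lines by the edgeR quasi-likelihood test at an adjusted p under 0.05, or 22.9%. In 162 of them (14.1%) the B cells were higher, with a median log2 difference of 2.11, and in 101 (8.8%) they were lower. The median of the lower ones was -2.44 as fitted. With the 15 windows that had 0 reads in B cells set to a floor of 3 reads in that library, it was -2.30. In 259 of the 263 the B cell library lay beyond all 8 3T3-L1 libraries. The same share over all 1148 windows is not given here, and a large difference in the test makes this position likely. Counting all windows, 417 had an unadjusted p under 0.05.

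The split of calls depended on how the libraries were scaled. TMM scaling, which assumes that most windows do not change, gave the B cell library a factor of 1.75, and the median log2 difference of all windows was -0.06. Scaled by total chromosome 10 reads outside the distant stretch, without TMM, that median was 0.44 and 205 windows were higher and 30 lower. Differences in windows are therefore given relative to a typical window, while the shares of reads in the text do not depend on TMM.

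**Figure D3:**
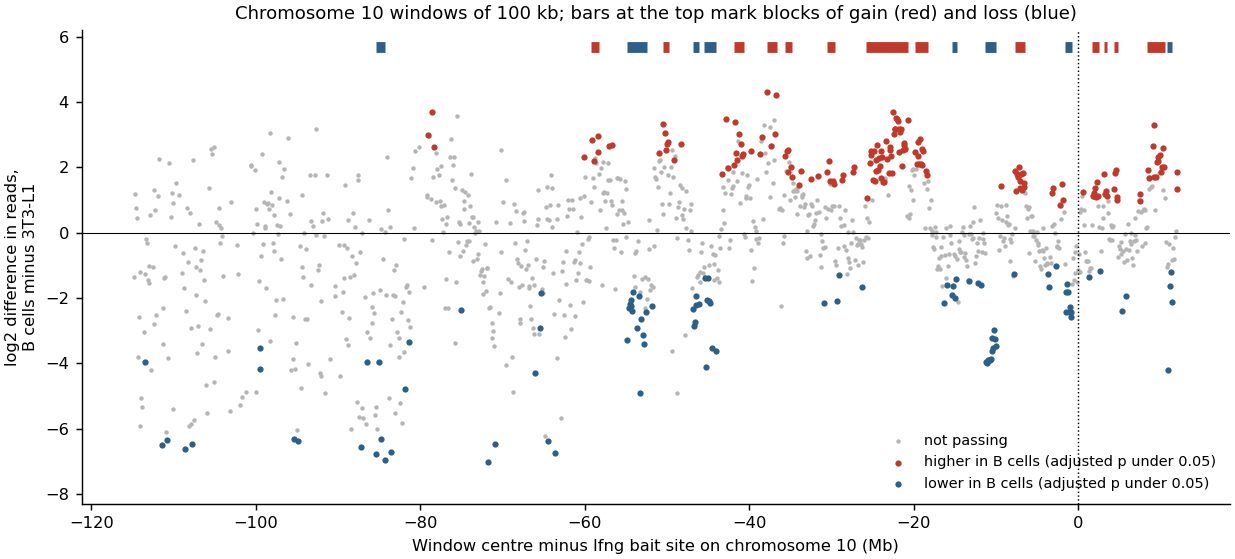
Log2 difference in reads, B cells minus 3T3-L1, for each of the 1148 windows of 100 kb tested on chromosome 10, against the distance of the window centre from the Ifng bait in Mb; red points are the 162 windows higher in B cells, blue points the 101 lower, grey points those that did not pass. Bars at the top mark the 13 blocks of gain in red and the 8 blocks of loss in blue; the widest red bar is the block from 92.1 to 97.2 Mb.

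The calls were uneven along the chromosome and most frequent from 90 to 100 Mb. Shares of reads in this paragraph leave out the distant stretch. On a fixed grid of 10 Mb, the section from 90 to 100 Mb had 56 of its 100 windows higher and 1 lower. It held 5.15% of the reads in B cells, against 0.843% to 2.01% (median 1.47%) in 3T3-L1. The section from 80 to 90 Mb had 21 windows higher and 3 lower of 95, and the section from 120 to 130 Mb had 30 higher and 7 lower of 100. The section from 100 to 110 Mb, which lies between those of gain, had 1 window higher and 22 lower of 100, and 13 of the 22 make up the block in the distant stretch. Outside that stretch its read share lay inside the 3T3-L1 range, at 3.21% in B cells and 2.07% to 3.98% in 3T3-L1. Other sections had calls in both directions. There were 10 higher and 15 lower of 100 from 60 to 70 Mb, and 14 and 14 of 97 from 70 to 80 Mb. From 110 to 120 Mb there were 22 higher and 13 lower of 100. From 0 to 30 Mb, 0 windows passed as higher and 9 as lower among 195 tested, and the read shares of these sections lay inside the 3T3-L1 range. Reads there were few: the section from 0 to 10 Mb held 0.211% in B cells, against 0.173% to 0.385% in 3T3-L1.

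A block was defined as at least 4 passing windows of 1 direction with neighbours at most 500 kb apart. Since blocks were chosen from these calls, their values describe them and test nothing. There were 13 blocks of gain, of 17.6 Mb in all, with 128 of the 162 higher windows, and 8 blocks of loss, of 9.1 Mb in all, with 61 of the 101 lower ones. The blocks of gain held 11.03% of all chromosome 10 reads in B cells, against 1.06% to 2.80% in 3T3-L1 (mean 1.93 ± 0.652, SD, n = 8), or 5.73 times the 3T3-L1 mean. The blocks of loss held 8.44% in B cells, against 30.3% to 42.7% in 3T3-L1. The rest of the chromosome beyond 1 Mb held 22.6% in B cells, against 9.33% to 20.7% in 3T3-L1.

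The largest block of gain lay at chr10:92100001-97200000, 20.7 Mb from the bait at its nearer edge, with 42 of 51 windows higher. It held 3.09% of the chromosome 10 reads outside the distant stretch in B cells, against 0.302% to 0.797% (median 0.543%) in 3T3-L1. Its HindIII sites were captured more often as well, 45.02% of 1686 in B cells and 13.6% to 34.3% in 3T3-L1. The block at chr10:98000001-99600000 followed it, with 0.992% of reads in B cells and 0.0989% to 0.255% in 3T3-L1. The block at chr10:110200001-111400000, between 2 blocks of loss, had all 12 of its windows higher and held 1.16% of reads in B cells, against 0.158% to 0.372% in 3T3-L1. On the high-coordinate side the largest lay at chr10:126300001-128400000, near the end of the chromosome, with 1.27% of reads in B cells and 0.139% to 0.365% in 3T3-L1. In these 4 blocks the B cell library was 3.13 to 3.89 times the highest 3T3-L1 library.

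The other 9 blocks of gain were smaller. On the high side, those from 119.6, 121 and 122.2 Mb had read shares of 3.05, 3.58 and 3.58 times the 3T3-L1 mean. Those from 58.7, 67.4, 76, 80, 82.2 and 87.3 Mb, on the low side, had 6.06, 8.33, 6.27, 8.28, 5.53 and 3.52 times the 3T3-L1 mean. The share of reads was above all 8 3T3-L1 libraries in 13 of the 13 blocks. The share of sites captured was above all 8 in 11, and in 12 once it was divided by the library's captured share over the whole chromosome. All blocks of gain together had 45.9% of their sites captured in B cells, against 16.5% to 38.4% in 3T3-L1. Within these blocks the extra reads thus lay at more sites and not at a few heavily read sites alone. Captured sites come from the same counts that set the blocks, so this describes them and is no separate test.

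**Figure D4:**
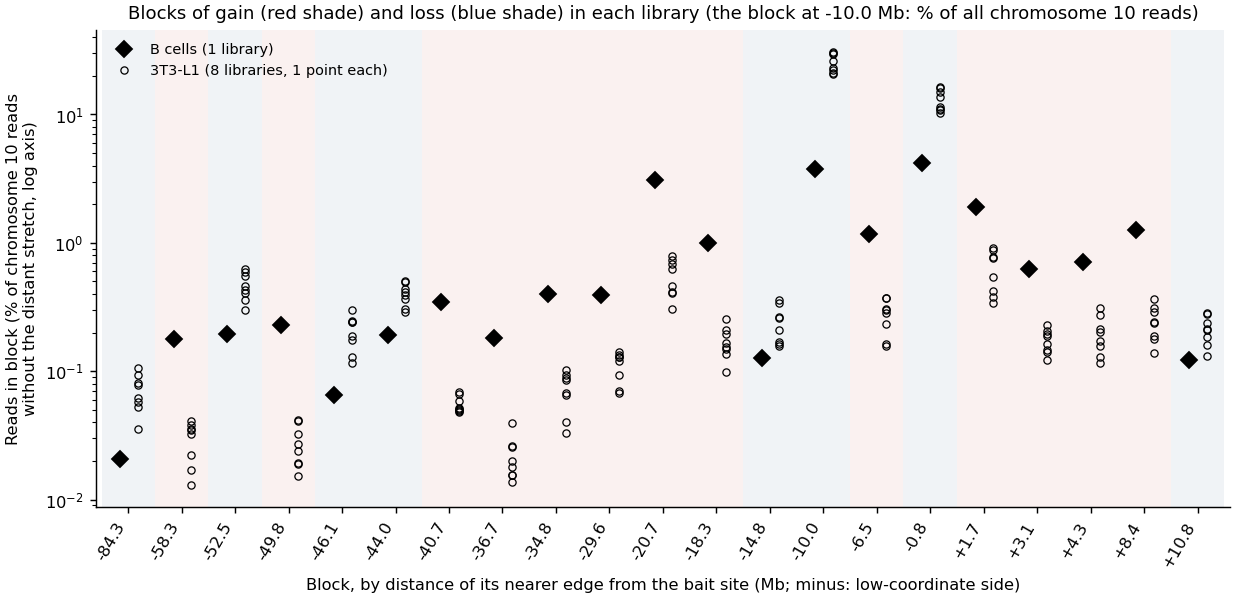
Reads in each of the 21 blocks, as a percent of chromosome 10 reads without the distant stretch (log axis; for the block from 106.6 Mb, of all chromosome 10 reads), ordered along the chromosome and labelled by the distance of the nearer edge from the bait in Mb; black diamonds are the B cell library, open circles the 8 3T3-L1 libraries, red shade marks gain and blue shade loss. In every block the diamond lies outside the circles, from 0.0206% in the block farthest from the bait to 4.16% in the block nearest to it.

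Of the 8 blocks of loss, the share of sites captured was below all 8 3T3-L1 libraries in 4 and inside their range in 4, among them the 2 with the most reads. Divided by the library's captured share beyond 1 Mb from the bait, it was below all 8 in 6, and those 2 stayed inside. At chr10:106600001-107900000, inside the distant stretch, 13 of 13 windows were lower, with 3.75% of all chromosome 10 reads in B cells, against 20.8% to 30.7% in 3T3-L1. At chr10:116300001-117100000, which ends 0.77 Mb from the bait, 8 of 8 windows were lower, with 4.16% of reads outside the stretch in B cells, against 10.2% to 16.4% in 3T3-L1. In both the captured share in B cells lay inside the 3T3-L1 range: 76.6% of sites against 76.1% to 86.9% in the first, and 79.8% against 76.5% to 89.5% in the second. Every library captured most sites of both blocks, so capture can hardly show a difference there. Reads per captured site, a ratio not scaled for depth, were 18.2 in B cells and 45.6 to 337 in 3T3-L1 for the first, and 34.1 in B cells and 34.8 to 243 in 3T3-L1 for the second. The high ends come from deeper libraries. In the 3 3T3-L1 libraries with fewer chromosome 10 reads than the B cells, the ratio was 45.6 to 79.2 for the first block and 34.8 to 54.5 for the second. In the fit to captured sites in place of reads, the median log2 difference of the windows from 106.6 to 107.9 Mb was -0.18.

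The other 6 blocks of loss held 0.696% of all chromosome 10 reads in B cells, against 0.768% to 1.56% in 3T3-L1. Their B cell share lay below the files numbered 1 by a wide margin (1.43% to 1.56%) and below those numbered 2 by a narrow one (0.768% to 1.02%). They had fewer sites captured in B cells, 16.04% of 2300, against 17.5% to 46.3% in 3T3-L1. Those from 102.5 and 128.7 Mb were exceptions, with 28.2% captured in B cells against 27.7% to 56.4% in 3T3-L1, and 25.1% in B cells against 22.0% to 52.9% in 3T3-L1. The longest, at chr10:63000001-65400000, had 0.197% of reads in B cells and 0.297% to 0.621% in 3T3-L1. Those from 71 and 72.4 Mb lay close to it, at 0.32 and 0.478 times the 3T3-L1 mean. The farthest, from 32.5 Mb, had 0 B cell reads in 5 of its 9 windows and 32 reads in all. The 2 smallest differences were those from 102.5 and 128.7 Mb, at 0.529 and 0.576 times the 3T3-L1 mean. The block from 128.7 Mb changed sign in windows of 1 Mb, where its median log2 difference was 0.27, and the wider windows also hold sequence outside the block.

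Single windows with the smallest p were drawn from these blocks, with 1 exception. The window at chr10:95300001-95400000 had 178 reads at 17 of its 32 sites in B cells, and 4 to 18 reads at 2 to 12 sites in 3T3-L1 (628 normalised counts, CPM, scaled to a common library total by TMM, in B cells, against 16.3 to 84.6 in 3T3-L1). The windows at chr10:128200001-128300000 and chr10:98600001-98700000 had 1012 and 776 CPM in B cells, against 57.6 to 359 and 70.7 to 143 CPM in 3T3-L1. At chr10:92600001-92700000 the level was 850 CPM in B cells and 83.1 to 255 in 3T3-L1 (log2 difference 2.52 ± 0.38, SE; edgeR adjusted p = 1.86e-08). At chr10:95700001-95800000 it was 508 CPM in B cells and 19.9 to 80.1 in 3T3-L1 (3.52 ± 0.56, adjusted p = 8.43e-08). Among those lower in B cells, the window at chr10:72600001-72700000 had 5 reads in B cells, or 17.6 CPM, against 192 to 444 CPM in 3T3-L1. A further one, at chr10:64500001-64600000, had 2 reads in B cells, or 7.05 CPM, against 120 to 387 CPM in 3T3-L1. The windows at chr10:107800001-107900000 and chr10:107300001-107400000, in the distant stretch, had 603 and 938 CPM in B cells, against 3926 to 11608 and 8529 to 17688 CPM in 3T3-L1. The window at chr10:123200001-123300000, in no block, had 130 CPM in B cells and 550 to 787 in 3T3-L1 (log2 difference -2.41 ± 0.47, SE; edgeR adjusted p = 1.87e-05). The groups did not overlap in any of these windows, as the rule for naming them required. Counted as captured sites in place of reads, 7 of these 10 windows lost their calls (edgeR adjusted p of 0.0861 to 0.879), and those from 95300001, 95700001 and 64500001 bp kept them. The window from 123200001 bp also lost its call when scaled by total chromosome 10 reads (edgeR adjusted p = 0.0724).

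Reads and captured sites were alike in direction in wide windows. In windows of 1 Mb, 70 of 127 passed with reads (55.1%), 38 higher (29.9%) and 32 lower (25.2%). With captured sites, 54 of 127 passed (42.5%), 33 higher (26%) and 21 lower (16.5%). Of the windows that passed on both measures, 30 were higher and 21 lower on both, and 0 disagreed in direction. Both measures come from the same counts, so this agreement is no separate test. At 100 kb, captured sites gave 10 calls among 889 windows, 9 of them higher. Against the 4 files numbered 1 alone 231 windows of 100 kb passed, and against the 4 numbered 2 alone 184. These 2 splits were chosen after seeing the data. With DESeq2 in place of edgeR 164 passed, 82 in each direction, of which 81 higher and 74 lower ones were also edgeR calls.

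Over 1251 windows of 100 kb farther than 1 Mb from the bait, the B cell profile was less like the 3T3-L1 profiles than these were like each other. The Spearman correlation of reads was 0.56 to 0.72 between the B cell library and the 8 3T3-L1 libraries, and 0.75 to 0.84 among the 28 pairs of 3T3-L1 libraries. With every library thinned to 110369 reads the ranges were 0.52 to 0.71 and 0.67 to 0.80, which overlap. With captured sites they were 0.68 to 0.80 and 0.80 to 0.88, which meet at their edges. Windows share the decline with distance, so these values describe likeness and carry no test.

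The blocks were read from elsewhere too, since the Pparg bait on chromosome 6 and the Lpin1 bait on chromosome 12 also capture chromosome 10. The blocks of gain were captured at 1.80 times the average of other chromosomes by the Pparg bait in B cells, against 1.72 to 2.48 times in 3T3-L1. The Lpin1 bait gave 1.25 times in B cells, against 1.16 to 1.75 times in 3T3-L1. Both B cell values lay inside the 3T3-L1 range, so no gain beyond the spread was detected from these baits over the blocks as a whole. Single blocks went both ways. Of the 13 blocks of gain, the B cells were above all 3T3-L1 libraries in 3, below all in 5 and inside in 5 from the Pparg bait, and above in 2, below in 3 and inside in 8 from the Lpin1 bait. The block from 76 Mb was among those above from Pparg, with 5.55 times in B cells and at most 3.94 times in 3T3-L1. Of the 8 blocks of loss, the B cells were above all in 3 and below all in 1 from Pparg, and above in 0 and below in 2 from Lpin1. The 6 smaller blocks of loss together were higher in B cells from Pparg, 0.808 against 0.103 to 0.472 times, and inside the range from Lpin1, 0.238 against 0.215 to 0.446 times. The largest block of gain was lower in B cells from both, 1.59 against 1.88 to 2.79 times for Pparg and 0.830 against 0.894 to 1.69 times for Lpin1. The block of loss from 116.3 to 117.1 Mb was lower in B cells from both baits as well, 4.77 times against 6.49 to 24.4 for Pparg and 5.50 times against 7.97 to 17.6 for Lpin1. The block from 106.6 to 107.9 Mb was lower in B cells for Lpin1, 1.47 times against 2.30 to 7.27, and inside the range for Pparg, 2.37 times against 2.03 to 6.19. The B cell counts are small, with 11 and 43 captured sites for the block nearest the bait and fewer in many others. From Pparg, the blocks of gain above all, from 76, 121 and 122.2 Mb, rested on 17, 3 and 3 captured sites in B cells. The blocks of loss above all, from 72.4, 102.5 and 128.7 Mb, rested on 10, 2 and 4. The 6 smaller blocks of loss had 18 captured sites in B cells, 10 of them from that at 72.4 Mb. Whether the lines differ in copy number in these blocks was not tested.

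On other chromosomes the Ifng bait captured 2.05% of the HindIII sites in B cells, against 2.13% to 7.40% in 3T3-L1. Each chromosome's captured share was therefore divided by that library's share over all of these chromosomes together. The same chromosomes led in both lines. Chromosome 16 had 2.18 times the average in B cells, against 2.17 to 3.29 times in 3T3-L1, and chromosome 6 had 1.56 times in B cells, against 1.52 to 2.28 in 3T3-L1. These values count sites with at least 1 read, and other counts set the B cells lower. The log2 ratio of B cells to the 3T3-L1 mean was -0.93 with reads for chromosome 16 and -0.82 for chromosome 6. With at least 2 reads per captured site it was -0.92 and -0.78. The B cell values lay inside the 3T3-L1 range for 9 of the 20 chromosomes. They were higher than in all 8 3T3-L1 libraries for 8 chromosomes and lower for 3. The ratios within a library depend on each other, so these are not separate gains and losses. After chromosome Y, the highest ratio of B cells to 3T3-L1 was that of chromosome 13, with 0.873 in B cells and 0.642 to 0.778 in 3T3-L1 (mean 0.710 ± 0.0461, SD, n = 8). Chromosome 3 had 0.874 in B cells and 0.668 to 0.793 in 3T3-L1. Chromosome 19, which is rich in genes, had the lowest ratio, with 0.903 in B cells and 1.11 to 1.34 in 3T3-L1 (mean 1.22 ± 0.0819, SD, n = 8). For each of these 3 the exact permutation test gave p = 0.111, the smallest possible, and an adjusted p of 0.247 over the 20 chromosomes.

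**Figure D5:**
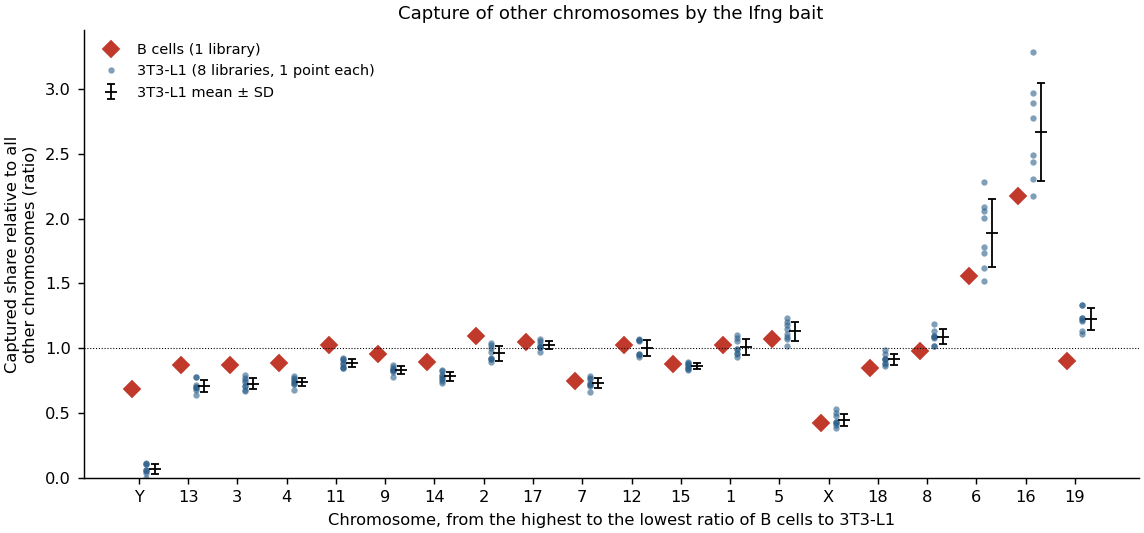
Captured share of each chromosome but 10 by the Ifng bait, relative to all of these together in the same library (ratio, dotted line at 1). The order runs from the highest to the lowest ratio of B cells to 3T3-L1. Red diamonds are the B cell library, blue points the 8 3T3-L1 libraries, and black bars their mean and SD. Chromosomes 16 and 6 are highest in both lines, and chromosome 19, at the right, is 0.903 in B cells and 1.11 to 1.34 in 3T3-L1.

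Few windows of other chromosomes separated the lines. With captured sites per 500 kb, 18 of 4134 windows passed the edgeR test, or 0.435%, 18 higher in B cells and 0 lower (0.0%). They lay on 11 chromosomes, 3 of them on chromosome 3, and had 9 to 17 captured sites in B cells. Over all windows tested, the B cell library had 15034 captured sites, against 15977 to 55093 in 3T3-L1. So few per window limit the detection of a fall in B cells. At an unadjusted p under 0.05 there were 279 higher and 253 lower. DESeq2 called 0, with 156 windows at an unadjusted p under 0.05. Some lower windows passed in other fits: with reads in place of captured sites 231 were higher and 24 lower, in windows of 1 Mb 79 were higher and 5 lower, and with the replicate number as a block 24 were higher and 1 lower. The window at chr3:138500001-139000000 had 17 captured sites of 162 in B cells, against 1 to 11 (median 6) in 3T3-L1 (log2 difference 2.69 ± 0.47, SE; edgeR adjusted p = 0.00349). The window at chr9:115000001-115500000 had 17 of 129 in B cells, against 2 to 13 (median 7.5) in 3T3-L1, with the same adjusted p. Those at chr3:136000001-136500000, chr3:108000001-108500000 and chr17:84500001-85000000 had 15, 13 and 15 captured sites in B cells, against 4 to 8, 2 to 11 and 2 to 13 in 3T3-L1. The lower window with the smallest p, which did not pass (edgeR adjusted p = 0.105), lay at chr18:29500001-30000000. It had 0 captured of 188 sites in B cells, which allows a share of up to 1.60%, and 4 to 23 captured sites (median 16.5) in 3T3-L1. The count of 18 rested on single libraries: it was 3 without day 1 replicate 2, 8 without day 1 replicate 1 and 28 without day 0 replicate 1.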

How the data were processed

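The deposited values are raw counts per HindIII site, not normalised, which the authors made with Bowtie (version not given in the sources used here) on mm9, per the submitters' processing notes. Filters and the handling of PCR duplicates are not given there. Total reads were 767419 in the B cell library and 844042 to 2075226 in the 3T3-L1 libraries. The members, lists and tests were chosen with earlier results of these data known.

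Sites within 10 kb of the bait were left out. On chromosome 10, windows of 100 kb summed reads. Elsewhere, where reads are few per site, windows of 500 kb summed captured sites and needed 3 or more of them on average. The contrast, B cells minus the mean of the 4 days, was fitted with edgeR 4.0.16 in R 4.3.3 (TMM, robust quasi-likelihood fit, filterByExpr on chromosome 10, Benjamini-Hochberg adjustment over all windows of a fit, threshold 0.05). The script was tested on simulated data. Spread came from the 3T3-L1 pairs, and the B cell library is assumed to vary likewise. Replicate numbers stand in the deposited file names and are not said to be separate cultures, so p-values measure only the spread between these libraries. For single shares, exact permutation tests (two-sided) were used, with Wilson intervals from SciPy 1.17.1. These intervals and floors cover counting error only, since PCR copies are not independent molecules.

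Windows named were those with the smallest p, up to 5 per direction, among those passing with the B cell library beyond all 8; all passing windows within 1 Mb of the bait; and every block. Leading single sites were added after seeing the data. The gene table at hand is of GRCm38.p6, another build than mm9, and was used for names and their order around Ifng. Planned gene lists were therefore not placed in windows. Alternatives included DESeq2 1.42.0, other scalings, filters, window sizes, captured sites and leaving out each library. The correlation of same-numbered libraries' deviations from their day's mean ran from 0.003 to 0.114 over 6 pairs. The main fit therefore did not pair samples by number, but a weak correlation does not show that the number can be ignored. Within 2 Mb on the low side, files numbered 1 held 38.3% to 42.6% of the bait chromosome's reads outside the distant stretch. Those numbered 2 held 45.1% to 49.9%. This shift is part of the replicate spread in the main fit. With the number as a block, 289 windows of that chromosome passed in place of 263.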

Additional observations from a re-analysis of the deposited data

How the results depend on the processing

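The count of 263 windows of chromosome 10 was 226 to 274 with each 3T3-L1 library left out in turn. It was 164 with DESeq2, 70 of 127 windows of 1 Mb, 10 with captured sites and 54 with captured sites in windows of 1 Mb. The replicate number as a block gave 289, and 25 in place of 18 on other chromosomes. That count of 18 was 3 to 28 with each library left out, 255 with reads in place of captured sites, 7 with at least 2 reads per captured site, 84 in windows of 1 Mb, 0 with DESeq2 and, chosen after seeing the data, 31 against the files numbered 2. Of the 21 blocks, 20 kept the direction of their median log2 difference under all 23 alternatives, some only in sign: that from 116.3 Mb was -0.16 with captured sites and -0.02 with captured sites in windows of 1 Mb, and that from 119.6 Mb was 0.03 in windows of 1 Mb. The block from 128.7 to 129.3 Mb was reversed in windows of 1 Mb, at 0.27 with reads and 0.15 with captured sites. The window from 107800001 bp was reversed with captured sites, at 0.16, and so was that from 118400001 bp, at -0.0298. Shares are given here as B cells minus the 3T3-L1 mean, in percentage points. The share on chromosome 10 was 10.4 higher, and 16.7 with captured sites, 19.7 with at most 100 reads per site and 16.4 without the distant stretch. At 0.5 to 2 Mb on the low side the difference was -10.9, and -0.48 with captured sites, -17.3 with a bait zone of 100 kb and -5.95 with the stretch kept. At 0.1 to 1 Mb on the high side it was 6.35, and 2.82 with at most 100 reads per site, 9.77 with the stretch kept and, reversed, -0.297 with captured sites, where most sites are captured in every library. At 20 to 50 Mb it was 5.21, and 6.90 with at most 100 reads per site and 6.58 with a bait zone of 100 kb. The high-side share within 2 Mb was 13.9 higher, and 0.0746 with captured sites, 11.1 with at most 100 reads per site and 19.8 with a bait zone of 100 kb. The cause of these changes was not tested. The 6 chromosomes followed kept their direction under all alternatives run. All 6 differences were larger with reads and with at least 2 reads per captured site. With each library left out, the log2 ratio of B cells to 3T3-L1 was -0.33 to -0.24 for chromosome 16. That for chromosome 6 was -0.32 to -0.23. Thinned, it was -0.51 for chromosome 16. Windows beyond 80 Mb from the bait hold few reads, which limits the detection of a fall there.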

Other observations

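Chromosome Y was captured in the B cell libraries of all 3 baits and rarely in the 3T3-L1 libraries. The Ifng bait captured 12 of its 855 HindIII sites, with 45 reads, in B cells, and 0 to 4 sites (median 2.5) with 0 to 7 reads in the 3T3-L1 libraries. Relative to all chromosomes but 10 together, the captured share was 0.684 in B cells and 0 to 0.110 in 3T3-L1. The Lpin1 bait captured 18 sites in B cells and 0 or 1 in each 3T3-L1 library, and the Pparg bait 13 sites in B cells and 0 to 4 in 3T3-L1. The number of copies of this chromosome in either line was not tested.

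The distant stretch of chromosome 10 held a larger share of reads in the 3T3-L1 files numbered 2 than in those numbered 1. The blocks of loss as a whole, of which that stretch is the largest, held 37.3% to 42.7% of chromosome 10 reads in the files numbered 2 and 30.3% to 33.0% in those numbered 1, and 8.44% in B cells. The blocks of gain held 1.06% to 2.27% in the files numbered 2, 1.83% to 2.80% in those numbered 1 and 11.03% in B cells.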
